A study of Mus musculus with 3 samples.

Results

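The nuclear-encoded genes of the mitochondrial respiratory chain and ATP synthase were examined in the cytosolic RNA of mouse macrophages. Members were taken by gene type and name: rows of the gene tables typed protein_coding in GENCODE M21 whose symbol begins with Nduf followed by a, b, c, s or v and a digit, with Uqcr, with Cox4 to Cox8 followed by a, b, c or i, or with Atp5. This gave 81 gene rows under 80 symbols, of 55536 annotated genes and 22015 nuclear-encoded protein-coding genes. By name, 37 belonged to complex I, 8 to complex III, 18 to complex IV and 18 to complex V. Atp5o had 2 identifiers. The rule itself uses no measured value, though it was set with earlier results of these data known.

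All libraries came from bone-marrow-derived macrophages of strain C57BL/6J, phagocytes that differentiate from marrow precursors in culture. They were exposed to lipid A, a TLR4 ligand, at 100 ng/ml for 120 min, and ribosomal RNA was depleted from total RNA of their cytosol before sequencing. There was 1 group of 3 libraries, replicates 1 to 3, and neither unstimulated cells nor a different time or fraction was analysed here. The labels record sex and age as not collected and list a single donor identifier for all 3, so the SDs and the dispersion test measure how far these 3 samples differ, and that difference may be technical. No effect of lipid A can be read from these data, and what follows are levels within stimulated cells and the spread between libraries.

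Complexes I to IV lie in the inner mitochondrial membrane and pass electrons from NADH and succinate to oxygen. Complexes I, III and IV pump protons across the membrane as they do so. Complex V, the ATP synthase, lets the protons flow back through a membrane ring of c subunits and makes ATP in its F1 head. A small set of subunits is encoded by mitochondrial DNA, while all others are made from nuclear genes, translated in the cytosol and imported. Several complex IV subunits, and the c subunit of complex V, are encoded by more than 1 nuclear gene, and some of the alternative genes are known from heart, skeletal muscle, lung or testis.

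The gene tables held 31152786, 114031592 and 59693298 expected counts in replicates 1, 2 and 3, so 3 counts, the limit that a count of 0 allows, were worth 0.0963, 0.0263 and 0.0503 CPM (counts scaled to the library's total), for counting error only. TPM, the deposited value per transcript length, was summed over all features, and nuclear-encoded protein-coding genes held 23.5%, 21.1% and 22.0% of it in replicates 1, 2 and 3. All 8 macrophage markers examined were detected, among them Lyz2 at 4039 ± 316 TPM and Cd68 at 545 ± 20.5 TPM (SD, n = 3 each). Of the defining markers of skeletal and heart muscle, testis and brown fat, tissues of several alternative subunits, none was detected, and markers of lung were not examined. Summed over the list, muscle markers reached 0.0233 ± 0.0321 TPM and testis markers 0.0467 ± 0.0153 TPM, and both brown fat markers had no counts (SD, n = 3 each). Markers of T cells, B cells, neutrophils, erythroid cells and fibroblasts were also below detection.

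Calling a gene detected when each library had 1 TPM or more, 72 of 81 members were detected, against 37.6% of nuclear-encoded protein-coding genes. In bulk RNA of this kind fewer cells of a type and less RNA per cell cannot be told apart, which applies to every level given here. Detection covered 36 of 37 complex I members, 8 of 8 of complex III, 12 of 18 of complex IV and 16 of 18 of complex V. Together the 81 members held 1.25% ± 0.0495 of the TPM of nuclear-encoded protein-coding genes, but 0.334% ± 0.0225 of their expected counts (SD, n = 3 each). The median over all members was 24.6, 24.3 and 25.2 TPM in replicates 1, 2 and 3.

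Genes of complex I stood lowest per gene, and those of the other complexes higher. The complex I median was 18.5, 17.4 and 17.3 TPM in replicates 1, 2 and 3, that of complex III 42.1, 42.2 and 45.7, that of complex IV 33.1, 37.1 and 32.6, and that of complex V 38.0, 36.6 and 36.4. The complex I median was thus the lowest in each of the 3 libraries, with no overlap with another complex. On the log2(TPM + 1) scale the median of complex III exceeded that of complex I by 1.24 ± 0.10, that of complex IV by 0.91 ± 0.12 and that of complex V by 1.02 ± 0.02 (SD, n = 3 each). No test was made over members, which are not replicates. The complex III median was the highest in each library, while those of complexes IV and V overlapped, with complex IV above complex V in replicate 2 and under it in replicates 1 and 3. The complex IV value depends on its undetected isoform genes. With detected members only it was 1.87 above complex I, and with the mean over members in place of the median it turned to -0.38. By summed TPM the order differed, since complex I has the most genes: 774 ± 10.2 for complex I, 323 ± 1.69 for complex III, 806 ± 13.2 for complex IV and 863 ± 27.6 for complex V (SD, n = 3 each).

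**Figure D1:**
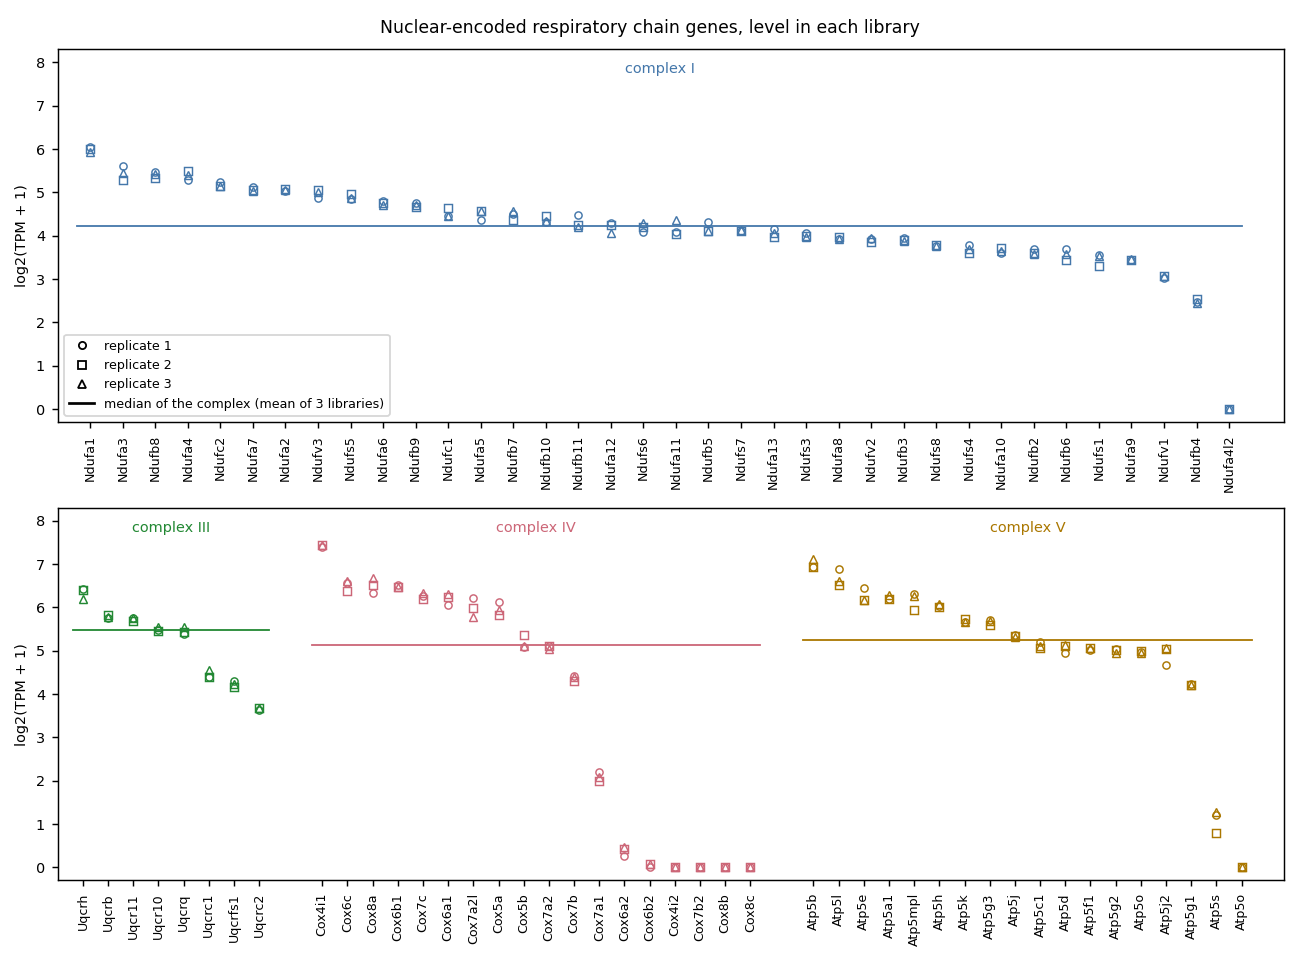
Level of the members as log2(TPM + 1), all gene rows but 1 of complex I, with 1 symbol per library and genes ordered by mean TPM within a complex; horizontal lines mark the median over all members of a complex. The points of a gene nearly coincide, Cox4i1 is the highest, and the low end holds the alternative complex IV genes, Ndufa4l2, Atp5s and the second Atp5o identifier.

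How a member ranked depended on whether its reads were divided by length. Every detected member had a shorter effective length (the length over which a fragment can start) than the median of detected nuclear-encoded protein-coding genes, with medians of 458 nt and 2330 nt. Of 72 detected members, 70 lay above the median TPM of those genes, which was 6.84, and 29 above their median CPM, which was 30.3. The top 10% of those genes held 21 of the 72 members by TPM and 2 by CPM. Across the 72 members, effective length and mean TPM had a Spearman rho of -0.433, and effective length and mean CPM one of 0.366. These are descriptions over genes that share the same libraries, and length itself enters TPM. By CPM the medians of complexes I, III, IV and V were 18.4 ± 1.56, 34.6 ± 2.84, 31.9 ± 4.69 and 33.2 ± 2.09 (SD, n = 3 each), so complex I was lowest on that scale too.

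**Figure D2:**
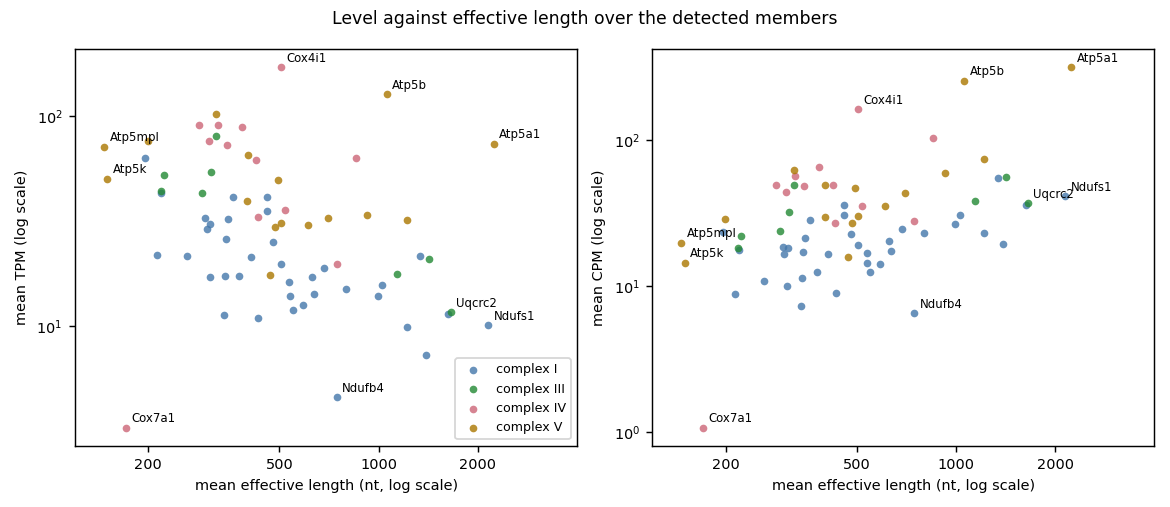
Mean TPM (left) and mean CPM (right) against mean effective length for the 72 detected members, on log axes and coloured by complex. Short genes such as Atp5mpl and Atp5k stand high on the left and low on the right, and long genes such as Ndufs1 and Uqcrc2 the reverse.

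The 6 members whose rank moved most between the scales were Ndufs1, Uqcrc2, Ndufa10, Atp5k, Uqcrc1 and Atp5mpl. Ndufs1, the largest iron-sulfur subunit of complex I with an effective length of 2148 nt, was 68th among members by TPM and 20th by CPM. Its TPM was 10.8, 8.89 and 10.6 in replicates 1, 2 and 3, from 1321, 4444 and 2522 expected counts. Ndufa10, an accessory subunit of complex I at 11.1, 12.1 and 11.5 TPM, went from rank 65 by TPM to 24 by CPM. In the other direction, Atp5k, the e subunit of complex V with an effective length of 150.3 nt, was 19th by TPM at 49.5, 51.9 and 49.7 and 60th by CPM. Atp5mpl, a small proteolipid of complex V at 78.1, 60.4 and 75.3 TPM, went from rank 12 to rank 47.

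Complex I takes electrons from NADH, and 7 of its nuclear-encoded subunits form the catalytic core that carries the flavin and iron-sulfur centres. The 7 core genes, Ndufs1 and Ndufv1 among them, had a median of 14.1, 13.5 and 14.5 TPM in replicates 1, 2 and 3, and the other 30 members a median of 19.2, 18.9 and 19.5 TPM. By CPM the order was the opposite, with 23.1 ± 1.34 for the core and 17.7 ± 1.31 for the others (SD, n = 3 each). The difference between core and accessory genes therefore has no fixed direction.

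The highest complex I member was Ndufa1, a small membrane subunit, at 65.4, 62.8 and 60.5 TPM in replicates 1, 2 and 3. It was followed by Ndufa3 at 48.1, 37.9 and 42.9, and by Ndufb8, a subunit of the membrane arm, at 43.3, 39.0 and 41.7. Ndufa4 stood at 37.9, 43.9 and 41.3 TPM. Its symbol places it in complex I, but its protein is known as a subunit of complex IV. Ndufa1 lay above every other member of the complex in each library, while the ranges of Ndufa3, Ndufb8 and Ndufa4 overlapped. On transcripts annotated as protein coding Ndufa3 had only 23.2, 24.0 and 22.7 TPM, below Ndufb8 and Ndufa4 in each library. The lowest detected members were Ndufv1, which binds NADH and flavin, at 7.18, 7.44 and 7.37 TPM, and Ndufb4 at 4.54, 4.82 and 4.46 TPM. The ranges of the lowest 2 did not overlap. By mean TPM the other 30 detected members lay between Ndufv1 and Ndufa4. Ndufa4l2, a paralog of Ndufa4, had no counts in any library. Per length Ndufa4 was at least 382-fold higher than the 3-count limit for Ndufa4l2 in replicate 1, the shallowest library.

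Complex III passes electrons from ubiquinol to cytochrome c. Its small subunits were the higher genes by TPM. Uqcrh, the hinge protein that meets cytochrome c1, had 84.6, 83.1 and 72.1 TPM in replicates 1, 2 and 3. Uqcrb, which binds ubiquinone, had 53.1, 55.6 and 53.6. Uqcr11 had 53.3, 50.9 and 52.9 and Uqcr10 had 43.3, 42.6 and 45.5. Uqcrh was the highest in every library, and the libraries of Uqcrb and Uqcr11 overlapped. The Rieske iron-sulfur protein Uqcrfs1 had 18.8, 16.8 and 17.7 TPM. The core proteins Uqcrc1 and Uqcrc2 had 19.9, 19.9 and 22.5, and 11.4, 11.9 and 11.9. Uqcrc2 was the lowest member in each library. The median of the 5 small subunits was 52.3 ± 1.24 TPM against 17.8 ± 0.976 for the core proteins and Rieske protein (SD, n = 3 each). By CPM it was 24.2 ± 2.98 against 38.9 ± 0.761, again the opposite order (SD, n = 3 each).

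Complex IV passes electrons from cytochrome c to oxygen, and its nuclear subunits include several with alternative genes. Cox4i1, the regulatory subunit 4 and the highest of all 81 members, lies on chromosome 8 (mm10, 120668222 to 120674207, plus strand). It had 168, 172 and 172 TPM in replicates 1, 2 and 3 from 4733, 19890 and 9843 expected counts. Its paralog Cox4i2, known from lung, had no counts in any library. Per length Cox4i1 was at least 1563-fold higher than the 3-count limit in replicate 1 and at least 6784-fold in replicate 2, the deepest.

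The same pattern of a widely expressed gene with counts and a tissue-restricted gene with few or none held for most pairs. Cox8a had 80.2, 90.5 and 102 TPM, and its paralogs Cox8b and Cox8c had no counts. Cox7b had 20.4, 18.7 and 20.0 TPM, and Cox7b2, known from testis, had no counts. Cox6b1 had 90.5, 87.9 and 88.2 TPM, and Cox6b2, also known from testis, had 0, 2 and 1 expected counts. These values placed every library of the widely expressed gene above every library of its partner.

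Cox6a1 had 65.9, 74.3 and 77.8 TPM in replicates 1, 2 and 3. Its heart and muscle counterpart Cox6a2 had 0.20, 0.350 and 0.390 TPM from 5, 37 and 20 expected counts, above the 3-count limit in each library and below the detection level. Cox6a1 was 329-, 212- and 199-fold higher in the 3 libraries. Of the 7 tissue-restricted genes, the exception was Cox7a1, known from heart, skeletal muscle and brown fat. It lies on chromosome 7 (mm10, 30184144 to 30186078, plus strand) and was detected at 3.61, 3.01 and 3.28 TPM from 33, 126 and 63 expected counts. In the second deposited quantification, whose TPM run lower throughout, it had 1.64, 1.32 and 0.916 TPM and missed the detection level in replicate 3. The muscle and brown fat markers, whose summed levels are given above, were at or near 0 in the same libraries. Cox7a2, its widely expressed counterpart, had 33.3, 33.8 and 31.9 TPM, 9.21- to 11.2-fold more in the single libraries. Cox7a2l, a related gene of the same family, had 73.6, 62.3 and 54.2 TPM. The order Cox7a2l, Cox7a2, Cox7a1 held in each library. Cox7a1 was among the 2 detected members under the median TPM of detected nuclear-encoded protein-coding genes, the other being Ndufb4.

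**Figure D3:**
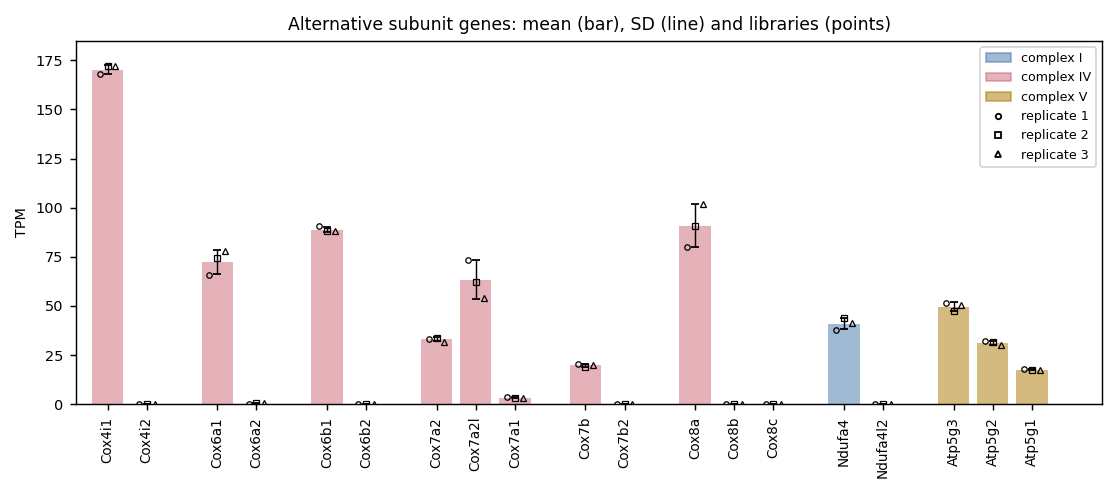
TPM of the members with alternative genes, by set: bars give the mean of 3 libraries, lines the SD and symbols the single libraries. In 6 sets the genes other than the leading ones sit at or near 0, while Cox7a1 reaches 3.30 TPM and the 3 c ring genes all have counts.

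Of the remaining members of complex IV, Cox6c had 94.2, 82.0 and 96.5 TPM. Cox7c had 75.8, 72.0 and 80.0, Cox5a had 68.5, 56.0 and 60.2, and Cox5b had 33.0, 40.5 and 33.3 TPM. Of the 12 detected complex IV members, 8 lay in the top 10% of detected nuclear-encoded protein-coding genes by TPM. For complexes V, III and I it was 8 of 16, 4 of 8 and 1 of 36. By CPM the counts were 0 for complexes IV, III and I and 2 for complex V.

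In complex V, the genes of the catalytic F1 head were the highest group by both scales, with a median of 71.6 ± 0.833 TPM and 59.9 ± 1.08 CPM (SD, n = 3 each). Atp5b, the catalytic beta subunit, on chromosome 10 (mm10, 128083273 to 128090391, plus strand), had 120.2, 122 and 137 TPM in replicates 1, 2 and 3. Atp5a1, the alpha subunit, had 72.6, 72.2 and 76.8 TPM. Atp5e, the epsilon subunit, had 86.1, 71.3 and 71.0 TPM. Atp5b exceeded the other head genes in every library, and Atp5a1 and Atp5e overlapped. On transcripts annotated as protein coding that lead was lost, with 68.9, 70.6 and 74.0 TPM for Atp5b against 72.0, 71.8 and 76.2 for Atp5a1. Atp5c1, the gamma subunit that forms the rotating shaft, had 33.9 ± 2.02 TPM and Atp5d, the delta subunit, 32.6 ± 2.30 (SD, n = 3 each). By expected counts Atp5a1 was the first of all members, with 9102, 37253 and 19456, and Atp5b the second, with 7206, 30686 and 15841.

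Genes of the peripheral stalk, which holds the head still, had a median of 32.2 ± 0.738 TPM over 5 rows. Of these, Atp5h had 65.0 ± 1.62, Atp5j 39.4 ± 0.602, Atp5f1 32.2 ± 0.738 and the first Atp5o identifier 30.3 ± 0.299 TPM (SD, n = 3 each). The second Atp5o identifier, which shares 243 exonic bases with the first and 287 with Donson, was listed at 0. Among membrane subunits, Atp5l, the g subunit, had 117, 91.2 and 97.3 TPM, and Atp5j2, the f subunit, had 24.6, 32.1 and 32.2. These ranges did not overlap, and Atp5l was the higher in each library. Atp5s, which matches by name and is not a structural subunit, had 1.33, 0.730 and 1.44 TPM and was not detected by the rule.

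The c ring, the rotor through which protons pass, is encoded by 3 genes, and all were detected. Atp5g3 had 51.6, 47.2 and 50.4 TPM in replicates 1, 2 and 3, Atp5g2 had 32.0, 31.6 and 29.9, and Atp5g1 had 17.7, 17.5 and 17.6. These ranges did not overlap, and the order held in each library. The final 75 codons of the 3 coding sequences are shown because they encode the same residues at every position while their bases differ. Within this stretch such differences can tell reads of the 3 genes apart. They cannot separate Atp5g2 from Gm10175, an identical copy treated below. Capitals mark the 57 of 225 positions at which the 3 genes are not all alike. Sequences run 5′ to 3′ and come from GENCODE M21 transcripts, from chromosomes 11, 15 and 2 for Atp5g1, Atp5g2 and Atp5g3.
Atp5g1: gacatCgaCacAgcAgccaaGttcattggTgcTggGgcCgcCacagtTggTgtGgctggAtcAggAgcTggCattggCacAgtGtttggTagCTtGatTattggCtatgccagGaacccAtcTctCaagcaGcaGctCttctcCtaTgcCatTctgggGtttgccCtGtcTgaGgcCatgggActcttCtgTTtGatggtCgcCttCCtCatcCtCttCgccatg
Atp5g2: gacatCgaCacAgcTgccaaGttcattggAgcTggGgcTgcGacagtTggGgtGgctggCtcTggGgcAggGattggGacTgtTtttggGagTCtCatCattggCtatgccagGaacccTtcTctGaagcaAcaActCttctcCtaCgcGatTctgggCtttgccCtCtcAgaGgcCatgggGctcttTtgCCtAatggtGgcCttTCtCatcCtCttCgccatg
Atp5g3: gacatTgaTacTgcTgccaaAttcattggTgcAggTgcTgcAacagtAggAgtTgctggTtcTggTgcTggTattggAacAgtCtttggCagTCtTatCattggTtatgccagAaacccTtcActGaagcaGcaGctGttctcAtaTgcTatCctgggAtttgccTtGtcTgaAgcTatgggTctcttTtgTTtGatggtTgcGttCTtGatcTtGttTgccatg

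Over these 225 bases Atp5g1 and Atp5g2 differed at 34 positions, Atp5g1 and Atp5g3 at 45, and Atp5g2 and Atp5g3 at 48, with no difference in the encoded residues. The closest pair was Atp5g1 and Atp5g2, at 84.9% identity.

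Near-identical copies elsewhere in the genome bear on several of these levels, since reads from an identical stretch cannot be assigned to one locus by sequence. A copy was counted where a transcript of another gene aligned to a member's coding transcript at 95% identity or more over at least 150 nt. Of the 81 gene rows, 24 had 42 such copies. Of these copies, 20 had 0 counts in every library and 3 were detected. The detected copies were Ndufb4c, Gm12338 and Gm10175, copies of Ndufb4, Cox7c and Atp5g2, and each is 100.0% identical to its member over its whole annotated length of 390, 192 and 645 nt.

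Ndufb4, a membrane-arm subunit of complex I on chromosome 16 (mm10, 37647170 to 37654453, minus strand), is matched by the processed pseudogene Ndufb4c on chromosome 15 (mm10, 73809507 to 73809896). The whole coding sequence of 387 bases is the same in both, and its first 240 bases are shown as an example of a stretch that either locus could have given.
Ndufb4: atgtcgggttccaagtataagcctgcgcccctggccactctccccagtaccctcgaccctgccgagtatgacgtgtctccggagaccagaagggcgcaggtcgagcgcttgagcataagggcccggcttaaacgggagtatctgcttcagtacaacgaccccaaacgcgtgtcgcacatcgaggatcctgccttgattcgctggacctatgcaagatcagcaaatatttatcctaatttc
The gene tables gave Ndufb4 188, 838 and 376 expected counts in replicates 1, 2 and 3, and Ndufb4c 231, 899 and 422. The pseudogene thus held 55.1%, 51.7% and 52.9% of the counts of the pair, and on its shorter length 25.7, 21.9 and 22.3 TPM against 4.54, 4.82 and 4.46 for Ndufb4. With the counts of both added, the pair stood at 13.5, 15.2 and 13.4 CPM. The place of Ndufb4 as the lowest detected complex I member is therefore uncertain.

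Cox7c, a small subunit of complex IV on chromosome 13 (mm10, 86044816 to 86046904, minus strand), shares its whole coding sequence of 189 bases with the processed pseudogene Gm12338 on chromosome 11 (mm10, 75599763 to 75599954). The sequence is shown whole because it spans nearly the entire pseudogene.
Cox7c: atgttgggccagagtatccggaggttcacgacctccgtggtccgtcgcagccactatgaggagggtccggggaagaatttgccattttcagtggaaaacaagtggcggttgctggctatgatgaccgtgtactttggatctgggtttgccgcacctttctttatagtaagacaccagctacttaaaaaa
Here the split of counts and that of TPM went apart. Gm12338 had 45.3, 409 and 174 expected counts in replicates 1, 2 and 3, against 1258, 5260 and 2743 for Cox7c. On an effective length of 15.4 nt this became 57.8, 96.4 and 110.3 TPM, with a mean of 88.1 ± 27.2 (SD, n = 3), against 75.9 ± 3.99 for Cox7c (SD, n = 3). In the second deposited quantification Gm12338 had 6.29 TPM and Cox7c 29.1 TPM on average.

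Atp5g2 shares all 438 coding bases with Gm10175, a transcribed processed pseudogene on chromosome 7 (mm10, 23946646 to 23947290). In the gene tables the copies of Atp5g2, of which Gm10175 was the detected one, held 19.2%, 20.2% and 19.5% of the joint counts in replicates 1, 2 and 3. In the second quantification Atp5g2 had 2.91, 1.34 and 1.41 TPM, and Gm10175 had 15.0 TPM on average. That quantification placed Atp5g2 below Atp5g1, which had 7.60, 7.39 and 4.87 TPM, so the order of the c ring genes given above holds for the gene tables only. For the other 20 detected rows with copies, the copies held under 5% of the counts in each library.

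The gene tables sum all transcripts of a gene, and for some members much of the level lay on transcripts that GENCODE M21 does not annotate as protein coding. Over the 72 detected members the leading transcript held a median of 96.4% of the gene's TPM, and in 48 members at least 90%. It was the same transcript in every library for 69 members and in both quantifications for 71. In 4 members, Ndufa5, Ndufs4, Atp5j and Ndufc1, the leading transcript was not annotated as protein coding.

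Ndufa5, an accessory subunit of complex I, had 19.5, 22.9 and 22.9 TPM in replicates 1, 2 and 3, but its protein-coding transcripts held 2.38, 3.59 and 3.65 TPM. The processed transcript Ndufa5-204 led with 61.9% ± 3.87 of the gene's TPM (SD, n = 3). Ndufs4, another accessory subunit, had 12.9, 11.2 and 11.9 TPM, of which coding transcripts held 3.04, 2.97 and 3.11. Its leading transcript Ndufs4-202, annotated as a target of nonsense-mediated decay, held 57.6% ± 1.98 (SD, n = 3). In both genes the coding transcripts stood well below the gene's total in each library.

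Atp5j, of the peripheral stalk of complex V, had 14.7 ± 2.76 TPM on coding transcripts of 39.4 in all, and its retained-intron transcript Atp5j-208 held 59.5% ± 6.87 (SD, n = 3 each). Atp5j shares 397 exonic bases with Gabpa on the opposite strand, and the strand setting of the counting is not given in the sources used here, so reads of the pair may not be separated. Atp5f1, of the same stalk, had 51.3% ± 2.48 of its TPM on non-coding transcripts, nearly all on Atp5f1-203, annotated for nonsense-mediated decay (SD, n = 3). Ndufc1 had 53.6% ± 2.45 of its TPM on non-coding transcripts, led by the retained-intron transcript Ndufc1-203 at 42.4% ± 4.41 (SD, n = 3 each).

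Short transcripts weigh more in TPM than in counts. By expected counts the non-coding share was 73.2% ± 2.30 for Ndufa5 and 50.1% ± 4.53 for Ndufs4, but 9.99% ± 0.507 for Atp5b, where by TPM it was 43.7% ± 2.16 (SD, n = 3 each). For Atp5j, Atp5f1 and Ndufc1 the share of counts was 46.8% ± 7.64, 44.7% ± 2.56 and 33.7% ± 3.34 (SD, n = 3 each). The share was over 50% in 5 members by TPM and in 2 by counts. Over 10% of TPM lay on non-coding transcripts in 14 of 72 members, and over 10% of counts in 11. These counts, and those of leading transcripts above, were made for members only. They therefore cannot be set against other genes. The median member had 0.961% of its TPM there. Counting coding transcripts only, complex III exceeded complex I by 1.30, complex IV by 0.89 and complex V by 1.08 on the log2(TPM + 1) scale.

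**Figure D4:**
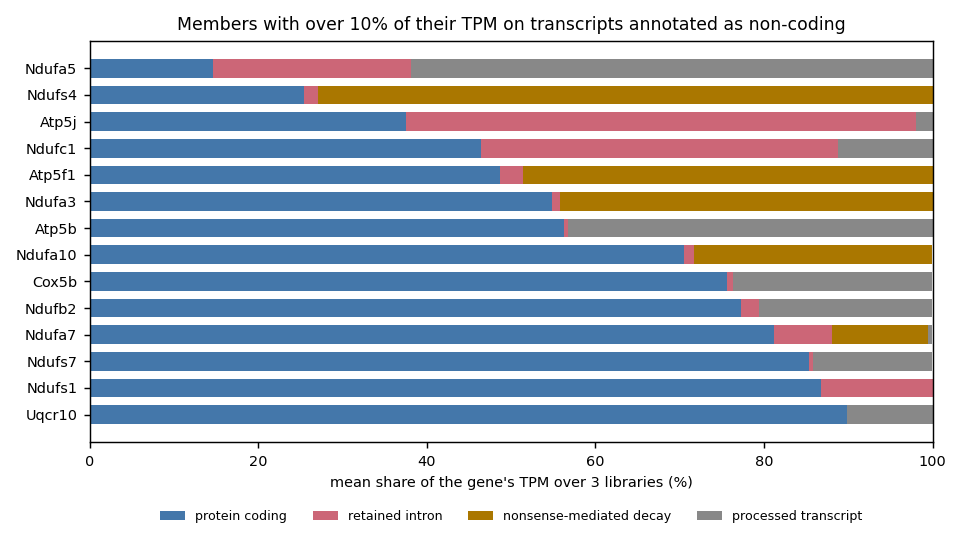
Mean share of a gene's TPM over 3 libraries by annotated transcript type, for the 14 detected members with over 10% outside protein-coding transcripts. Ndufa5 and Ndufs4 have the smallest coding share, and Uqcr10 the largest of those drawn.

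Members also overlap other genes. Exons of 30 member rows overlapped those of another gene, 26 on the opposite strand and 6 on the same strand, and these levels are uncertain to that extent. A further 12 rows matched the names but not the gene type. Of these, Ndufb4c and Ndufb1-ps were detected. Ndufb1-ps, typed as a long non-coding RNA from a bidirectional promoter, had 50.4, 48.9 and 58.1 TPM in replicates 1, 2 and 3, a level that among complex I members only Ndufa1 passed.

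By deposited TPM the members differed little between libraries. Among the 73 members whose mean was 1 TPM or more, the highest library was a median of 1.11 times the lowest, and 1 member had a ratio of at least 1.5, against 15.5% of all genes at that level. That member was Atp5s at 1.97, whose CPM of 1.58 ± 0.0289 was nearly constant while its effective length was 641, 1092 and 581 nt in replicates 1, 2 and 3 (SD, n = 3). Among the 72 detected members the ratio ran from 1.01 to 1.36. Over nuclear-encoded protein-coding genes with a mean of 1 TPM or more the median ratio was 1.22. With TPM rescaled over nuclear-encoded protein-coding genes the medians were close, 1.14 for members and 1.17 for those genes. By CPM on edgeR TMM library sizes the median member ratio was 1.22. In the second quantification as deposited, 57 of 72 members passed 1.5, against 69.2% of all genes tested there. Rescaled to the TPM of nuclear-encoded protein-coding genes 2 of 74 did, against 36.6% of all genes. The limit of 1 was then applied to the rescaled values. The 36.6% thus covers 14369 genes, against 7378 as deposited, and takes in genes of lower level.

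The 6 detected members with the widest spread of log2(TPM + 1) were Atp5j2, Atp5l, Atp5mpl, Cox7a2l, Cox8a and Ndufa11. Atp5l, Atp5mpl and Atp5j2 were given above. Cox7a2l had 73.6, 62.3 and 54.2 TPM in replicates 1, 2 and 3 and Cox8a had 80.2, 90.5 and 102, so that these 2 ranked the libraries in opposite order. Ndufa11, an accessory subunit of complex I, had 16.1, 15.4 and 19.7. For Atp5j2 the leading transcript itself differed, with Atp5j2-201 at 45.0%, 67.8% and 61.0% of the gene's TPM.

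Small as it was, the spread exceeded counting error for most members. In a Poisson dispersion test on expected counts with edgeR TMM library sizes, Benjamini-Hochberg adjusted over all genes tested, 63 of 74 members varied beyond counting error, against 62.1% of all genes. The largest excess was in Atp5b (adjusted p = 4.6e-52), Cox7a2l (adjusted p = 1e-47) and Atp5a1 (adjusted p = 3.6e-42), members with many counts. Ndufs1 (adjusted p = 0.15), Atp5mpl (adjusted p = 0.22) and Cox5a (adjusted p = 0.37) did not pass. Without replicate 2 the count was 33 of 74, against 37.9% of all genes. Of the detected nuclear-encoded protein-coding genes alone, 6028 of 8280 varied with all 3 libraries. The median biological coefficient of variation, as edgeR estimates it, was 0.118 for members. It was 0.131 for all nuclear-encoded protein-coding genes tested and 0.114 for the detected ones, so members were not steadier than other detected genes by this measure.

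The mitochondrially encoded partners of these genes behaved differently. All 13 were detected, and all 13 were lowest in replicate 2. mt-Co1, the catalytic subunit of complex IV, had 3845, 740.4 and 2919.7 TPM in replicates 1, 2 and 3, and mt-Cytb of complex III had 1208, 279 and 1007. The highest library of these genes was a median of 4.52 times the lowest, against the 1.11 of the members. The median mitochondrial gene of complex I had 49.2, 12.3 and 39.7 times the TPM of the median detected nuclear member in replicates 1, 2 and 3, and for complex III the ratio was 28.7, 6.60 and 22.0. For complex IV it was 4.14, 1.48 and 3.30, and for complex V, from mt-Atp6 alone since mt-Atp8 had an effective length of only 20.7 nt, 8.25, 1.35 and 4.26. In the gene tables mt-Co1, mt-Co3 and mt-Co2 averaged 2502, 207 and 21.3 TPM, so the complex IV ratio rests on mt-Co3, and mt-Atp6 averaged 205. In the second quantification mt-Co1 averaged 930.2 TPM, but mt-Co3, mt-Co2 and mt-Atp6 averaged 241, 71.3 and 499.7. The ratios of complexes IV and V therefore depend on the quantification. In each complex the ratio was lowest in replicate 2, while the median nuclear member of complex I had 18.7, 17.7 and 17.9 TPM in the 3 libraries. Replicate 2 was also the deepest library, and the part of depth in this difference was not tested. The ratios describe RNA of the cytosolic fraction and not of whole cells, and the amount of mitochondria in each preparation was not measured.

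**Figure D5:**
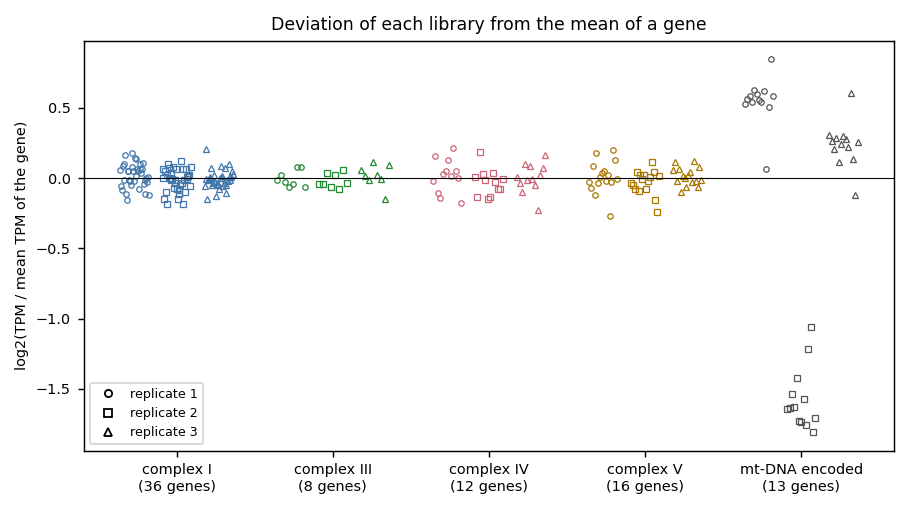
Deviation of each library from the gene's mean, as log2 of TPM over mean TPM, for the detected members by complex and the 13 genes of mitochondrial DNA. Members stay close to 0 in every library, while the mitochondrial genes fall far below in replicate 2.

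Replicate 2 was also the lowest library for 63.3% of nuclear-encoded protein-coding genes at a mean of 1 TPM or more, but for 27 of 73 members. With TPM rescaled over nuclear-encoded protein-coding genes, replicate 1 was the lowest library for 46 of 73 members, against 33.4% of the same genes. The rescaled level of replicate 2 against the mean of the other libraries had a median of 0.09 on the log2 scale over members, -0.04 over nuclear-encoded protein-coding genes and -1.94 over mitochondrial genes.

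Other genes of the pathway were taken from lists by known role, and the assembly factors and regulators had lower medians than the members. All 4 complex II genes (Sdha, Sdhb, Sdhc and Sdhd) were detected with a median of 26.1 ± 1.36 TPM (SD, n = 3), between complex I and the other complexes by TPM. By CPM their median of 53.7 ± 0.346 lay above all 4 complexes (SD, n = 3). Cycs, the electron carrier cytochrome c, had 6.07 ± 0.381 TPM, and Cyc1, cytochrome c1 of complex III, had 8.31 ± 0.353 (SD, n = 3 each). By CPM Cycs was the higher, with means of 29.6 and 20.1. Atpif1, which inhibits complex V when it runs in reverse, had 104, 109 and 98.6 TPM in replicates 1, 2 and 3, near the highest members of that complex.

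Assembly factors of complex I were detected in 10 of 14 cases with a median of 1.83 ± 0.10 TPM, led by Ndufaf8 at 6.01 ± 0.659 (SD, n = 3 each). Those of complex III were detected in 4 of 6 cases, led by Uqcc2 at 12.1 ± 0.422 TPM (SD, n = 3), and those of complex V in 3 of 3, led by Tmem70 at 4.83 ± 0.536 TPM (SD, n = 3). Those of complex IV were detected in 15 of 19 cases with a median of 3.15 ± 0.366 TPM, and among them the copper chaperone Cox17 had 65.7, 61.8 and 69.0 TPM. Of 10 regulators of respiratory chain genes, 7 were detected, and the list's median was 2.49 ± 0.385 TPM (SD, n = 3). Ppargc1a, the coactivator PGC-1alpha, was listed at 0 in each library. Nrf1 and Gabpa, which encode factors that bind promoters of such genes, had 3.30 ± 0.339 and 7.95 ± 0.574 TPM (SD, n = 3 each).

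Promoter windows were available from RefSeq (GRCm38.p6, 250 bases before to 50 after a start) for 63 of 80 symbols, with 68 windows, and were searched on both strands. The NRF1 motif letters GCATGCGC were in 13.8% of the 65 windows of detected members, in 5.68% of those of all detected nuclear-encoded protein-coding genes and in 2.71% of all windows in the table. The ETS core CCGGAAG, the kind of site that Gabpa's protein binds, was in 21.5%, 19.7% and 8.86%, and CCAAT in 40.0%, 36.8% and 37.4%. None of the 3 was in 44.6% of the detected members' windows. A match is a description of letters and not a binding site. The upstream part of the Cox8a and Cox8b windows is shown because the genes encode alternative forms of 1 subunit at opposite ends of the range of levels. They run 5′ to 3′ toward the start on the minus strand, at chr19:7217617-7217866 and chr7:140900447-140900696, and capitals mark a match to CCAAT or its reverse complement. The whole Cox8a window also held the ETS core, which does not lie wholly within the bases shown.
Cox8a: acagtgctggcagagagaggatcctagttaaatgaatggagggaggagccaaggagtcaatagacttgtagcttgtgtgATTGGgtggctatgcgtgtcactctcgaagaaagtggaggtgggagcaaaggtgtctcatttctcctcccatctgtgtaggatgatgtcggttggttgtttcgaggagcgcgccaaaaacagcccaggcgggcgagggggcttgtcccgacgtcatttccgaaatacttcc
Cox8b: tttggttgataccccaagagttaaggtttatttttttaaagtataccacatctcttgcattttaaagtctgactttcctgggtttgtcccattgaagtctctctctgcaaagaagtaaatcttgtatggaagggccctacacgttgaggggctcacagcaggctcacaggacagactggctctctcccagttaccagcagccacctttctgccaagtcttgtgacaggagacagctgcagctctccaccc

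The whole Cox8a window held 19 CpG dinucleotides and that of Cox8b 2. This contrast did not separate every pair, by motif or by CpG. The upstream part of Cox7a1 held 2 CCAAT matches and that of the higher Cox7a2 held none of the 3 motifs. Their whole windows held 7 and 20 CpG dinucleotides, and those of Cox6b1 and Cox6b2 held 17 and 10. For Cox7b and Cox7b2 the higher gene had fewer, with 5 for Cox7b against 10 for Cox7b2. The median was 21 CpG dinucleotides over windows of detected nuclear-encoded protein-coding genes and 7 over all windows.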

How the data were processed

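Total RNA-seq of 3 libraries (1 group) was analysed from the deposited tables. Per the file headers, the authors deposited expected counts (model estimates that need not be whole) and TPM per gene and transcript in RSEM's column layout, each transcript's percent of its gene's TPM, and estimated counts and TPM per transcript in kallisto's layout, here called the second quantification and summed per gene. Genome mm10 and annotation GENCODE M21 are named in text files deposited beside the tables. The strand setting, the aligner and its version were not given in the sources used here. TPM divides by effective length and sums over all features, so short RNAs gain and TPM keeps no depth.

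The members, groups and lists were chosen with earlier results of these data known. Named are the 4 highest and 2 lowest detected members of each complex, every alternative gene, the 6 largest shifts in rank and the 6 largest SDs of log2(TPM + 1). Ndufa5, Ndufs4, Ndufc1, Atp5f1, Cox5a, Cox5b, Cox7c, Atp5c1, Atp5d, Atp5h, Atp5j, Atp5o, Atp5s and the pseudogenes were named after their values were seen.

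CPM was computed from expected counts over annotated genes. Library sizes and the biological coefficient of variation came from edgeR 4.0.16 in R 4.3.3 (TMM, intercept only), on counts rounded to whole numbers, where a gene averaged 10 or more. The dispersion test was a chi-square with 2 degrees of freedom, adjusted by Benjamini-Hochberg at 0.05, and was tested on simulated data. Copies were sought with blastn 2.17.0. Other steps used pandas 2.3.3, scipy 1.17.1 and numpy 2.4.6 under Python 3.11.15. DESeq2 1.42.0 gave size factors for an alternative. Floors cover counting error only. Alternatives were CPM, the second quantification, other pseudocounts, filters and library sizes, and each replicate left out. Protein sequences were not used here. The single values of 1 member are not reported here.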

Additional observations from a re-analysis of the deposited data

How the results depend on the processing

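No paired analysis was possible because there is 1 group. The median of complex III above complex I, 1.24 on the log2(TPM + 1) scale, was 0.87 by CPM (also with counts of copies added), 1.13 in the second quantification and 0.95 with means over members. That of complex IV, 0.91, was 0.74 by CPM (also with copies added), 1.87 with detected members only, 1.76 with an effective length of at least 200 nt, and turned to -0.38 with means over members, where the 6 undetected genes lower the mean. That of complex V, 1.02, was 0.81 by CPM, 0.95 with copies added, 0.88 in the second quantification, 1.05 with a pseudocount of 0.1 or rescaled TPM, 1.23 with detected members only, 0.84 with means, 0.94 with an effective length of at least 200 nt, 1.08 with coding transcripts and 1.26 without Atp5s and the second Atp5o. Leaving out each replicate in turn gave 1.19 to 1.29, 0.84 to 0.96 and 1.01 to 1.03.

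Members detected ran from 70 to 73 over the settings tried, and the second quantification gave 71, without Cox7a1. Members varying beyond counting error were 56 to 64 under other library sizes (61.7% to 62.4% of all genes) and 62 with no filter (42.2%). They were 33 to 58 without each replicate, with 33 without replicate 2 (37.9%) and 58 without replicate 3 (49.5%). Members with a ratio of at least 1.5, of which there was 1, numbered 57 in the second quantification (69.2% of all genes tested), 2 with rescaled TPM (21.5%), 2 in the rescaled second quantification (36.6%) and 2 with coding transcripts (Atp5s and Ndufa5, computed for members only). They numbered 0 with mean TPM of at least 10 (9.22%) and 0 to 1 without each replicate (5.63% to 12.0%). By TMM-scaled CPM the count was also 1 (13.6%), but the member was Cox5b and not Atp5s. The shares of 21.5% and 36.6% take in genes of lower level, since the limit of 1 was applied to rescaled values. Of 37 named members with a level above 0, the second quantification gave 36 a value more than 1 SD lower, with a median ratio of 0.377. After rescaling to nuclear-encoded protein-coding genes, the median ratio over detected members was 0.988, 0.973 and 0.941 in replicates 1, 2 and 3. The settings with copies added, with coding transcripts, the omission of Atp5s and the second Atp5o, and the rescaled second quantification were chosen after seeing the data. The cause of the lower count without replicate 2, the deepest library, was not tested. Depth limits the floors most in replicate 1, the shallowest.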
